A study of Mus musculus with 12 samples.

Results

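The genes followed here encode 10 proteins of synaptic vesicles: the SV2 glycoproteins Sv2a, Sv2b and Sv2c, the small GTPases Rab3a, Rab3b and Rab3c, the tetraspan proteins Syp and Synpr, and the synapsins Syn1 and Syn2. They were chosen by name, and all 10 were found among the 20504 genes of the table of reads on coding sequence (CDS), which covers 12 libraries from 6 mice. All mice were adult Camk2a-RiboTag animals, 3 months of age. They carry Cre recombinase under the Camk2a promoter, which is active in principal excitatory neurons of the forebrain, and after Cre recombination their ribosomal protein Rpl22 bears an HA tag. Mice A and B were given the vehicle by gavage (their labels read untreated). Mice C and D were given AZD-8055, an ATP-competitive inhibitor of the kinase mTOR, as a single oral dose of 100 mg/kg, and were sacrificed after 1 h. Each of these 4 mice gave a ligation-free ribosome profiling library and a poly(A) RNA-Seq library from the same lysate of frontal brain tissue. Mice E and F, labelled untreated, each gave an RNA-Seq library of homogenate (input) and an RNA-Seq library of polysomes immunoprecipitated by the HA tag (IP). Each group therefore holds 2 mice. The p-values of the gene tests rest on the spread within groups, estimated with information shared across genes.

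Synaptic vesicles store neurotransmitter at nerve terminals and release it by fusing with the plasma membrane. SV2 proteins are multi-spanning glycoproteins of the vesicle membrane that take part in calcium-triggered release. Rab3 GTPases bind vesicles in their GTP form and recruit effectors such as RIM and rabphilin before fusion. Synaptophysin (Syp) and synaptoporin (Synpr) are membrane proteins of 1 small family, and synapsins are phosphoproteins on the outer face of vesicles that tether them in the reserve pool.

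CDS totals ranged from 9395385 to 10649939 reads in the RNA-Seq libraries of mice A to D and from 3503873 to 9259938 in the footprint libraries, of which mouse C had the fewest. The inputs held 12580397 and 15585831 CDS reads and the IP libraries 9309496 and 9975629. Levels are given below as CPM, the counts per 1000000 CDS reads of the library. They are not divided by gene length, so they compare a gene between libraries and not one gene with another.

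The 3 SV2 genes lie on chromosomes 3, 7 and 13 (mm10, RefSeq annotation of GRCm38.p6): Sv2a at chr3:96181227-96195183, Sv2b at chr7:75114894-75309262 and Sv2c at chr13:95959443-96132577. Sv2a, the most widely expressed SV2 gene of the brain and the target of the antiepileptic levetiracetam, was at 474 and 452 CPM in RNA of vehicle mice A and B, and at 684 and 713 CPM in their footprints. Sv2b was at 269 and 229 CPM in RNA and at 620 and 616 CPM in footprints of mice A and B. Sv2c, known for its expression in basal ganglia, was at 18.5 and 18.1 CPM in RNA and at 96.3 and 97.8 CPM in footprints. All 3 genes were thus higher in both footprint libraries than in both RNA-Seq libraries of these mice. The gap was widest for Sv2c. The number of all genes that separated in this way was not counted. Higher footprints were common, as edgeR's quasi-likelihood test called 36.5% of 11797 genes higher in footprints at adjusted p under 0.05.

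Among the Rab3 genes, Rab3a (chr8:70754703-70758608) encodes the main Rab3 isoform of brain, and Rab3b (chr4:108879070-108943324) and Rab3c (chr13:110054187-110280996) encode isoforms of more restricted or lower expression. Rab3a was at 616 and 554 CPM in RNA and at 1002 and 978 CPM in footprints of mice A and B. Rab3b was at 83.3 and 85.6 CPM in RNA and at 122 and 127 CPM in footprints. Rab3c was at 29.2 and 27.8 CPM in RNA and at 232 and 214 CPM in footprints, the widest gap of the 3 Rab3 genes. Of the reads on the 3 Rab3 coding sequences, Rab3c held 4.01% (Wilson 95% interval 3.57 to 4.50) of RNA and 17.1% (16.5 to 17.8) of footprints in mouse A. In mouse B it held 4.17% of RNA and 16.2% of footprints. Intervals of this kind cover counting error only.

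Syp (chrX:7638580-7653256), the common marker of presynaptic terminals, was at 833 and 787 CPM in RNA and at 1275 and 1332 CPM in footprints of mice A and B. Synpr (chr14:13284780-13615469) was at 99.5 and 89.4 CPM in RNA and at 113 and 112 CPM in footprints. Syn1 (chrX:20860511-20920918) was at 731 and 687 CPM in RNA and at 919 and 878 CPM in footprints. Syn2 (chr6:115134902-115282626) was at 326 and 306 CPM in RNA and at 536 and 512 CPM in footprints. The footprint values lay above the RNA values for each of these 4 genes, by little for Synpr.

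**Figure D1:**
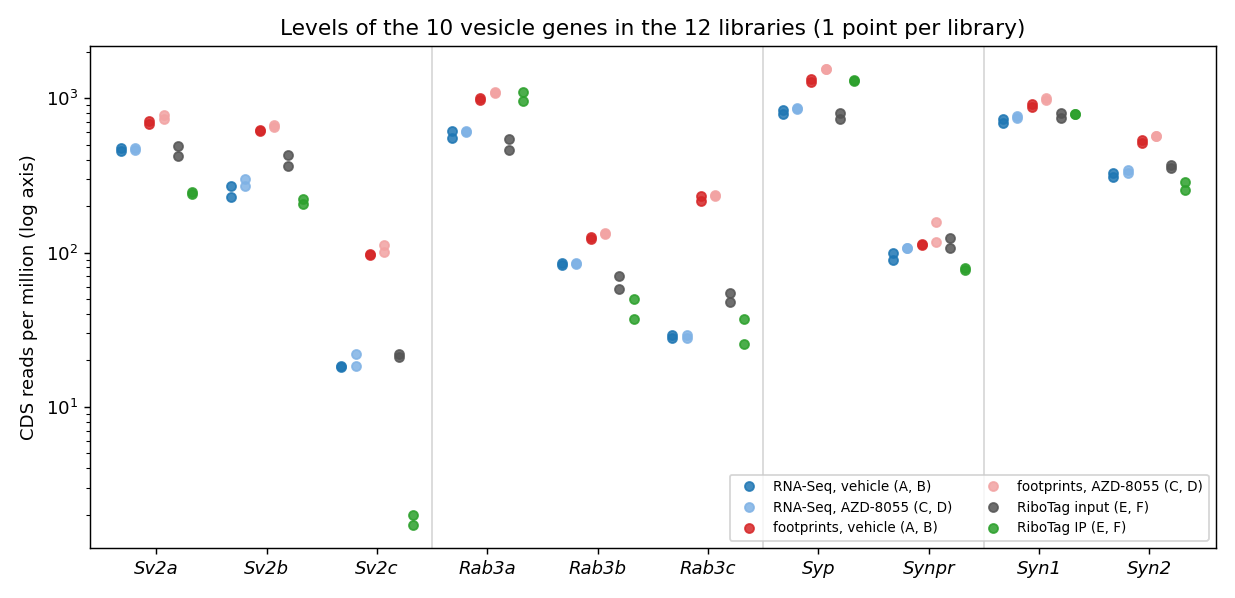
CPM on CDS (log axis) of the 10 genes, with 1 point for each of the 12 libraries, coloured by assay and treatment. Red points (footprints) lie above blue points (RNA-Seq of the same mice) for every gene, and the 2 IP libraries of Sv2c, at 1.72 and 2.01 CPM, lie far below all other points of that gene.

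Translation efficiency (TE), the ratio of footprint to RNA counts on CDS after scaling by DESeq2 size factors, is given on the log2 scale, where the median of 10882 genes was 0.016. The standard deviation over these genes was 0.99, and the 2 vehicle mice differed with a standard deviation of 0.28. For Rab3c it was 3.12 (A) and 3.01 (B), an 8.38-fold ratio that stood at percentile 99.8 of all genes. Sv2c had 2.51 and 2.50, at percentile 99.4, and Sv2b had 1.33 and 1.49, at percentile 94.5. Rab3a (0.86 ± 0.042, SD, n = 2 mice), Syn2 (0.83 ± 0.025), Syp (0.78 ± 0.060), Sv2a (0.69 ± 0.050) and Rab3b (0.65 ± 0.029) lay between percentiles 77.7 and 84.1. Syn1 (0.44 ± 0.024) and Synpr (0.35 ± 0.060) were the lowest of the 10, at percentiles 69.5 and 65.7. In this order, the values of the vehicle mice overlapped between Rab3a and Syn2, between Syn2 and Syp, and between Sv2a and Rab3b, and no other neighbours overlapped.

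All 10 genes were called higher in footprints than in RNA of vehicle mice by edgeR's quasi-likelihood test (adjusted p from 1.87e-13 for Rab3c to 0.0040 for Synpr). The background was high: of 11797 genes tested, 36.5% were called higher and 37.3% lower, and the median log2 ratio was 0.85 for the 10 genes against -0.0096 for all. Without mouse B the call of Synpr was lost (0.33, edgeR adjusted p = 0.097).

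These ratios depended on where RNA reads were counted. The authors also counted the RNA-Seq libraries over all exons, which include untranslated bases, so a gene with much untranslated sequence has a lower TE on that scale by construction. Rab3c had 6672 exon reads for 274 CDS reads in RNA of mouse A and 6336 for 275 in mouse B. Its 24.4 and 23.0 exon reads per CDS read compare with a median of 1.53 over genes in both libraries and put it at percentile 99.9. Sv2b had 3.33 and 3.32, Syn2 3.00 and 3.02, Syp 2.81 and 2.80 and Synpr 2.60 and 2.80 exon reads per CDS read. Sv2a, Sv2c, Syn1, Rab3a and Rab3b were at 1.90 or below.

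With exon counts as the RNA denominator, an alternative chosen after the data had been seen, Rab3c came to a log2 TE of -0.69 (A) and -0.72 (B), at percentile 24.1. Rab3c was then called lower in footprints (log2 -0.62, edgeR adjusted p = 4.93e-06). Sv2c kept its place, at 2.41 in both mice and percentile 99.2. Rab3a took the next place with 1.04 ± 0.024 (SD, n = 2), ahead of Rab3b with 0.87 ± 0.0050. On this scale 7 of the 10 genes were called higher and 1 lower, beside 36.1% and 38.2% of 12379 genes. Synpr (-0.21, edgeR adjusted p = 0.086) and Syn2 (0.11, edgeR adjusted p = 0.15) were not called. Sv2c, Rab3a, Rab3b, Sv2a, Sv2b, Syn1 and Syp were called higher with either denominator.

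**Figure D2:**
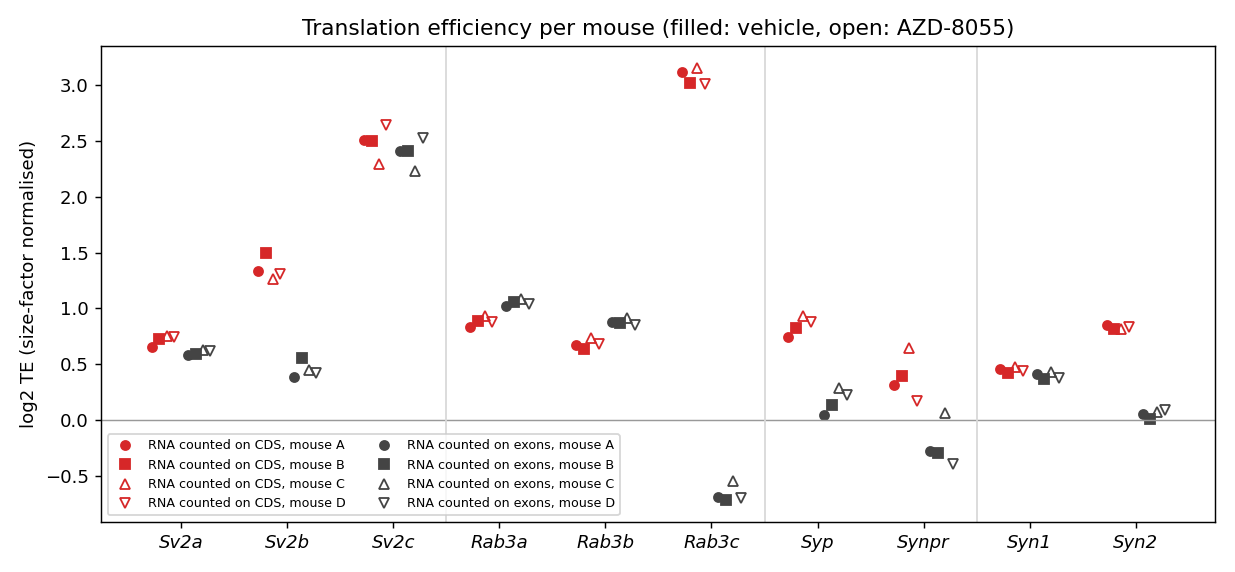
log2 TE of the 10 genes in mice A and B (vehicle, filled) and C and D (AZD-8055, open), with RNA counted on CDS (red) or on exons (grey). The 4 mice lie close together for most genes, Sv2c stays near 2.5 with both denominators, and Rab3c moves from about 3.1 to about -0.7.

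Paralogs were compared within each mouse, where size factors cancel. An exact sign-flip permutation test over the 4 mice has too few arrangements to reach 0.05. All 8 pairs gave the smallest two-sided p that this permutation test allows, 0.13, which was also the value adjusted over the 8 pairs. The CDS-based TE of Sv2c exceeded that of Sv2a by 1.85, 1.78, 1.54 and 1.89 on the log2 scale in mice A, B, C and D (mean 1.76 ± 0.16, SD, n = 4), and with exon counts by 1.79 ± 0.13. It exceeded that of Sv2b by 1.14 ± 0.15, and by 1.94 ± 0.15 with exon counts. Sv2b lay above Sv2a by 0.63 ± 0.12 with CDS counts and below it in all 4 mice with exon counts (-0.15 ± 0.074). Thus Sv2c had the highest TE of its family in every mouse with both counts, and the order of Sv2a and Sv2b turned with the count.

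Rab3c exceeded Rab3a by 2.29, 2.13, 2.23 and 2.13 in mice A to D (mean 2.19 ± 0.079) and Rab3b by 2.40 ± 0.052 with CDS counts. With exon counts it lay below Rab3a (-1.72 ± 0.064) and below Rab3b (-1.54 ± 0.056) in all 4 mice. Rab3b lay below Rab3a in all 4 mice with both counts (-0.20 ± 0.041 on CDS and -0.17 ± 0.019 on exons). Synpr lay below Syp in all 4 mice, by -0.47 ± 0.18 on CDS and -0.40 ± 0.17 on exons. Syn2 lay above Syn1 by 0.38 ± 0.025 with CDS counts and below it with exon counts (-0.34 ± 0.036).

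**Figure D3:**
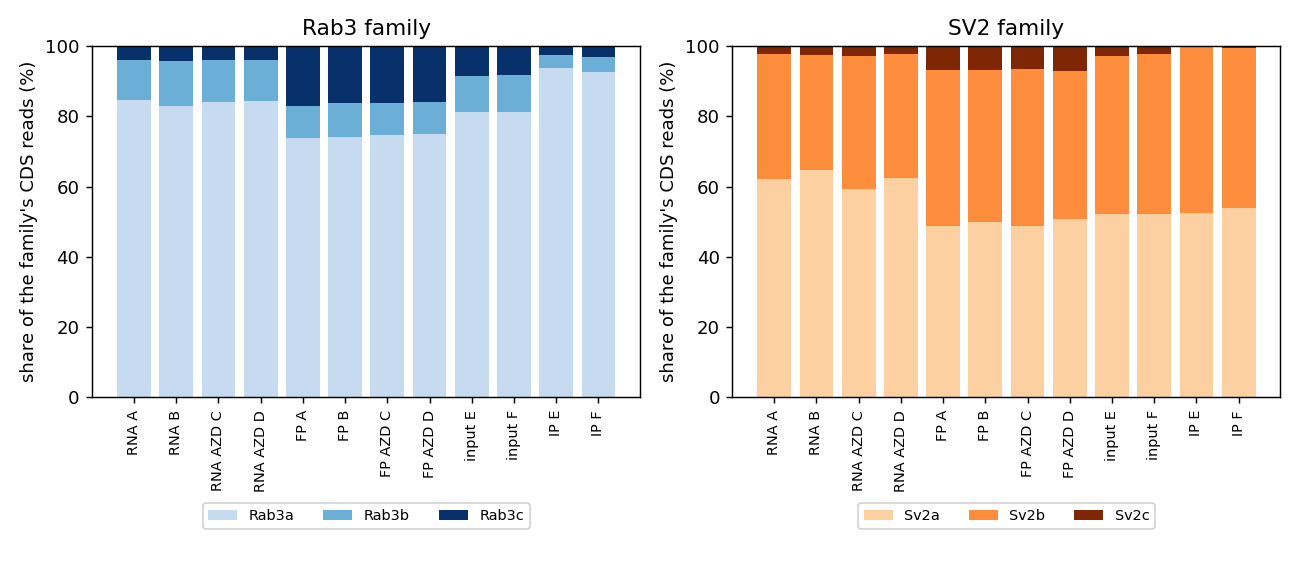
Share of the CDS reads of the Rab3 family (left) and the SV2 family (right) held by each paralog in the 12 libraries, where FP is footprints, AZD is AZD-8055, and each bar sums to 100%. The dark segment of Rab3c is 15.9 to 17.1% in footprints and 3.91 to 4.17% in RNA of the same mice, and the dark segment of Sv2c nearly disappears in the IP libraries.

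The RiboTag IP asked which transcripts were on the polysomes of Camk2a-expressing cells. Rab3a was at 462 and 543 CPM in the inputs of mice E and F and at 955 and 1104 CPM in their IP libraries. Syp was at 735 and 799 CPM in inputs and at 1284 and 1319 CPM in IP. Sv2c fell from 22.1 and 20.9 CPM (278 and 326 reads) to 1.72 and 2.01 CPM (16 and 20 reads). The groups did not overlap for any of these 3 genes. The number of all genes that separated in this way was not counted, and calls in either direction were common, as given below.

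By edgeR on CDS counts, Rab3a (log2 1.47, SE 0.12, adjusted p = 1.04e-05), Syp (1.20, SE 0.097, adjusted p = 8.84e-06) and Syn1 (0.46, SE 0.098, adjusted p = 0.0024) were higher in IP. All 3 SV2 genes were lower: Sv2c (-3.08, SE 0.24, adjusted p = 7.08e-06), Sv2a (-0.47, SE 0.12, adjusted p = 0.0051) and Sv2b (-0.46, SE 0.12, adjusted p = 0.0073). The other 4 were not called, at log2 -0.28 for Rab3c, -0.13 for Synpr, -0.13 for Rab3b and 0.013 for Syn2. Of the 12211 genes tested, 36.5% were called higher and 39.0% lower, so 3 and 3 of 10 is near the background. With mouse as a block, which pairs the IP and input of an animal, Rab3c was also called lower (-0.29, edgeR adjusted p = 0.043). Its log2 ratio differed between the animals, at -0.36 in mouse E and 0.025 in mouse F.

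Scaling by total counts moved the median of all genes from -0.067 to -0.51 and the share of calls that were higher from 48.3% to 32.5%. On that scale Rab3b (-0.57), Rab3c (-0.72), Synpr (-0.57) and Syn2 (-0.43) were called lower and Syn1 (0.016) was not called. Rab3a, Syp and Sv2c kept their direction and call with DESeq2, the other scalings, no count minimum, exon counts and the mouse block.

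The count table mattered here too. A median gene had 1.47 (E) and 1.50 (F) exon reads per CDS read in input, and 1.84 (E) and 1.97 (F) in IP. That of Sv2b went from 2.86 and 2.98 to 6.66 and 8.91, that of Syn2 from 2.77 and 2.87 to 5.19 and 6.22, and that of Rab3c from 15.7 and 16.7 to 30.1 and 26.1. With exon counts Sv2b turned to higher in IP (0.49, edgeR adjusted p = 0.010), Syn2 was called higher (0.56, edgeR adjusted p = 0.0010) and Rab3b lower (-0.57, edgeR adjusted p = 0.013), and Sv2a was no longer called (-0.22, edgeR adjusted p = 0.063). In all, 5 of 10 were called higher and 2 lower on exons, beside 33.7% and 35.7% of 13254 genes. Such shifts were not particular to these genes. Over 12168 genes, the shift in the log2 IP ratio from CDS to exon counts went with exon reads per CDS read in input (Pearson's r = 0.67). The sign of the ratio differed between the counts for 13.8% of them. The part of the unequal read distribution in the differences of the 10 genes was not tested.

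**Figure D4:**
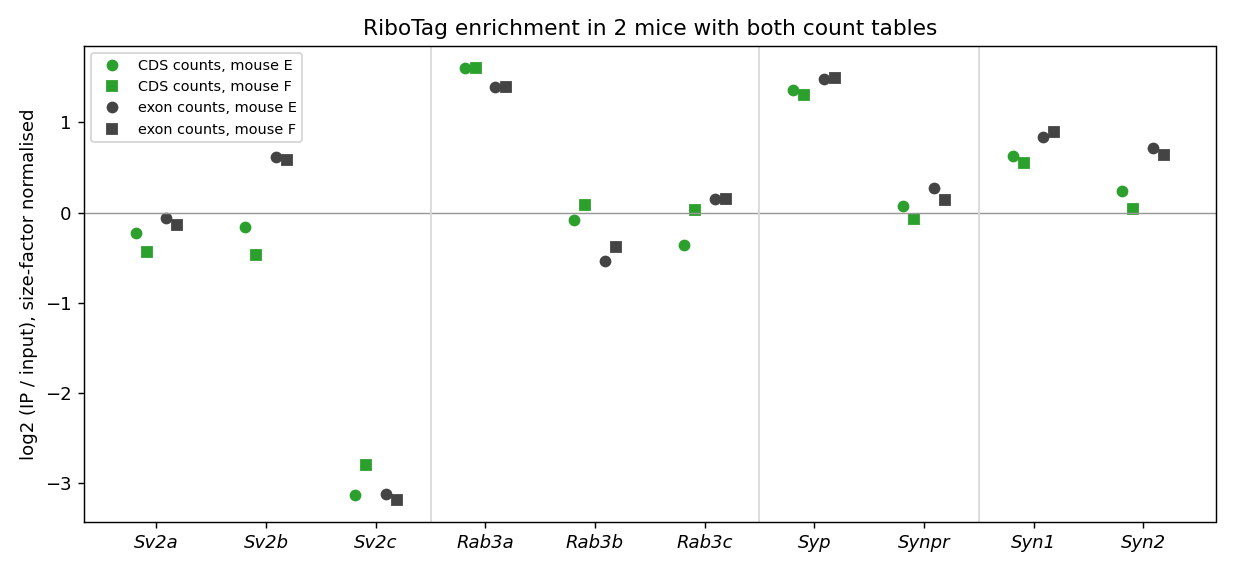
log2 ratio of IP to input for the 10 genes in mouse E (circles) and mouse F (squares), from CDS counts (green) and exon counts (grey), each scaled by DESeq2 size factors. Rab3a and Syp lie above 1 and Sv2c at about -3 in both mice with both counts, and Sv2b changes side between the counts.

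Within families, the ratio of IP to input of Sv2c lay below that of Sv2a by -2.91 in mouse E and -2.36 in mouse F on the log2 scale, with CDS counts. Rab3a stood above its paralogs: Rab3b lay -1.69 and -1.53 from it, and Rab3c -1.96 and -1.58. Rab3a held 81.3% and 81.2% of Rab3 CDS reads in the inputs and 93.8% and 92.7% in IP. Synpr lay -1.28 and -1.38 from Syp, and Syn2 -0.38 and -0.51 from Syn1. These differences kept their sign with exon counts. The order of Rab3c and Rab3b did not (mean -0.16 on CDS and 0.61 on exons), and Sv2b and Sv2a differed in sign between the mice on CDS (0.062 and -0.037). With 2 mice, these pairs are values with no test.

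Markers moved in the same libraries, where 36.5% of 12211 genes were called higher in IP and 39.0% lower. Of 10 excitatory neuron markers, 6 were higher and 3 lower in IP (Nrgn 2.50, Rasgrf2 -1.27), and their summed level was 5000 to 5347 CPM in inputs and 6913 to 7489 in IP. Of 11 interneuron markers, 9 were lower (Gad2 -3.78) and Cck was higher (2.69), and with Cck included the sum was 1569 to 1618 CPM in inputs and 1803 to 1895 in IP. Of 10 striatal neuron markers, 3 were higher and 4 lower (Ppp1r1b 1.05, Pde10a -2.94), with sums of 1064 to 1278 CPM in inputs and 964 to 1471 in IP. All 8 astrocyte, all 6 oligodendrocyte, all 6 endothelial and 5 of 6 microglia markers were lower. The astrocyte markers summed to 1602 and 1489 CPM in the inputs of mice E and F and to 98.5 and 112 CPM in IP. The oligodendrocyte markers summed to 2191 and 2044 CPM in input and 154 and 160 CPM in IP. For the microglia markers the sums were 330.0 and 331.0 CPM in input and 28.3 and 27.3 CPM in IP, and for the endothelial markers 255 and 287 CPM in input and 17.5 and 26.0 CPM in IP. Of 5 dentate granule markers only 2 passed the count minimum, of which Prox1 was lower (-3.31), and 1 of the 5 was at 0 in the IP library of mouse F. No other list had a marker at 0 in these libraries. Input and IP of a mouse came from the same lysate, so these values compare captured polysomes with the homogenate and not numbers of cells. The part of these markers' cells in the values of the 10 genes was not tested.

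AZD-8055 was given to find transcripts whose translation depends on mTOR. None of the 10 genes was called by edgeR in RNA, footprints or TE after treatment. At an unadjusted p under 0.05 there were 2 in RNA (Sv2b and Synpr), 1 in footprints (Syp) and 0 in TE. Over all genes, that limit was passed by 1004 of 12182 in RNA, 1369 of 10695 in footprints and 796 of 11797 in TE. DESeq2 called 0 of the 10 genes in RNA, 1 in footprints (Syp) and 0 in TE. Calls were rare over all genes: in TE, 0.0763% were higher and 0.788% lower of 11797 tested. In RNA 0.0575% were higher and 0.0903% lower of 12182, and in footprints 0.0468% were higher and 0.982% lower of 10695.

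The log2 changes in TE lay between -0.12 for Sv2b and 0.13 for Syp, with standard errors of 0.080 to 0.15, and their median was 0.031 against -0.011 for all genes. Rab3c had a log2 TE of 3.16 and 3.01 in mice C and D, beside 3.12 and 3.01 in vehicle mice. Sv2c had 2.29 and 2.64 in mice C and D, on both sides of the vehicle mice. In RNA the changes lay between 0.010 for Rab3b and 0.19 for Sv2b (SE 0.060 to 0.14, median 0.089 against -0.0035 for all genes). These estimates do not show that the genes did not change.

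Footprint changes were above 0 for all 10 genes, with a median of 0.12 against 0.00099 for all genes. Syp was at 1538 and 1552 CPM in footprints of mice C and D, above the 1275 and 1332 CPM of mice A and B with no overlap. Its log2 change was 0.24 (SE 0.053, unadjusted p = 0.0011 and adjusted p = 0.081 by edgeR, DESeq2 adjusted p = 0.021). How many of all genes separated between treatments in this way was not counted. Synpr was at 158 CPM in mouse C and 117 CPM in mouse D, so its log2 change of 0.27 (SE 0.12, edgeR adjusted p = 0.40) rested mainly on mouse C. Without mouse D it was 0.49 (edgeR adjusted p = 5.48e-05), and without mouse C it was 0.039 (edgeR adjusted p = 0.89). Syp was not called without mouse A or without mouse B. It was called without mouse C (0.23) and without mouse D (0.24). In such fits the lone treated library is assumed to vary like the vehicle libraries, and without mouse C 355 genes were called higher and 482 lower in footprints, against 5 and 105 with all mice.

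Sums of marker levels also differed between vehicle and treated mice, not all in the same direction. The 10 striatal markers summed to 1939 and 1892 CPM in RNA of mice A and B and to 2180 and 2325 CPM in mice C and D, and to 2067 and 2113 against 2241 and 2569 CPM in footprints. The 10 excitatory neuron markers summed to 4401 and 4349 against 4788 and 4408 CPM in RNA, and to 4334 and 4319 against 4835 and 4945 CPM in footprints. The 11 interneuron markers summed to 1783 and 1757 against 1827 and 1840 CPM in RNA, and to 2801 and 2808 against 2988 and 3023 CPM in footprints. The 5 dentate granule markers, at low levels, summed to 14.3 and 16.2 against 8.64 and 15.3 CPM in RNA, and to 30.5 and 36.0 against 25.1 and 29.6 CPM in footprints. Treated mice were thus above vehicle mice for the first 3 lists and below them in footprints for the dentate list. Some gaps were narrow, as between 4401 and 4408 CPM (excitatory, RNA) and between 30.5 and 29.6 CPM (dentate, footprints). The astrocyte, oligodendrocyte and endothelial sums overlapped between treatments in RNA and footprints, and the microglia sums in RNA. In footprints the microglia markers summed to 265 and 269 against 276 and 270 CPM. The part of these markers in the footprint values of Syp and Synpr was not tested.

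**Figure D5:**
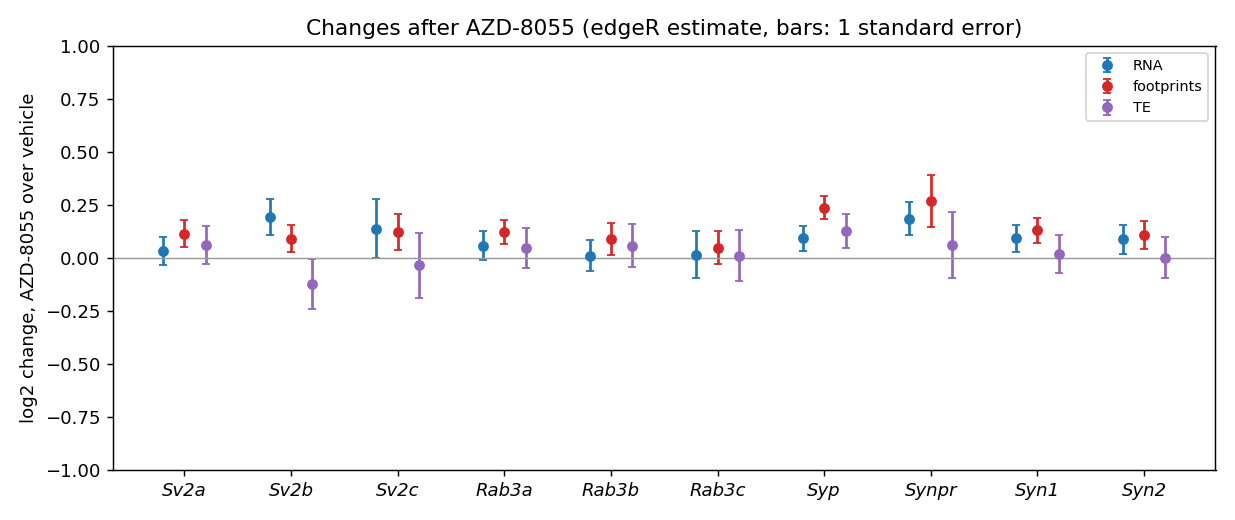
log2 change after AZD-8055 in RNA (blue), footprints (red) and TE (purple) for the 10 genes, estimated by edgeR from 2 treated and 2 vehicle mice, with bars of 1 standard error. All points lie between -0.12 and 0.27, and no point passed the threshold of adjusted p under 0.05.

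Translation of mRNAs that begin with a 5′ terminal oligopyrimidine (TOP) stretch is known to depend on mTOR, so the first transcribed bases of the 10 genes were read from the RefSeq promoters (GRCm38.p6). A start was called TOP-like when its first base was C and the next 4 were C or T, read on the transcribed strand only. None of the 10 genes had such a start at any annotated position, and 2.505% of all 32851 promoters had 1. Of the 8855 genes tested for TE change that matched a promoter, 264 (2.981%) had a TOP-like start. Among the 93 genes called lower in TE after AZD-8055, 69 matched a promoter, and 13 of these (18.84%) had a TOP-like start. The paper reports that all genes passing its own limits for reduced TE were canonical TOP genes or clearly held TOP motifs. The 18.84% is therefore a share of matches to the rule used here and not a share of TOP mRNAs. The 3 members shown are those whose first listed start opens with a pyrimidine, with 20 bases before the start in lower case and the first 10 transcribed bases in capitals.
Sv2a, chr3:96181207-96181236, plus strand: ctggtaccgggaggagcagtCGCCGCTGCC
Sv2c, chr13:96132568-96132597, minus strand: gactagctcaaaggagtcacCACTGCGCGC
Synpr, chr14:13284760-13284789, plus strand: ctctgccccgcccacccctcTCTAGCTCGG
Sv2a and Sv2c open with C but go on with a purine, and Synpr opens with a run of 3 pyrimidines that starts with T. The match says only whether these letters stand at an annotated start, which may differ from the start used in brain.

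Relatives outside the 10 genes gave a mixed picture. Syn3, the third synapsin, had 274 and 121 footprints for 123 and 112 CDS RNA reads in mice A and B and a log2 TE of 1.30 in both (edgeR log2 1.36, adjusted p = 4.50e-07), above Syn1 and Syn2. It had 7.29 and 8.82 exon reads per CDS read, and with exon counts its log2 TE was -0.77 and -1.05. In IP Syn3 was lower on CDS counts (-1.02, edgeR adjusted p = 0.0031) and not called on exon counts (-0.16, edgeR adjusted p = 0.23). Rab3d, the fourth Rab3 gene, had 36 and 21 footprints for 25 and 37 RNA reads in vehicle mice and did not pass the count minimum for TE. In IP Rab3d was at -0.68 on CDS counts (edgeR adjusted p = 0.13), from 59 and 75 reads in input and 28 and 14 in IP, and was called higher on exon counts (0.38, edgeR adjusted p = 0.043).

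Of 10 close relatives (Rab3d, Syn3, Svop, Sypl and the synaptogyrins among them), 6 were tested for TE in vehicle mice, 4 were higher and 1 lower, with Syn3 highest and Svop lowest (-0.92), beside the background of 36.5% and 37.3%. With exon counts none of 7 was called higher by edgeR and 6 were lower, and the median turned from 0.47 to -0.81. In IP 2 of 7 were higher and 3 lower, from Syngr3 (1.16) to Syngr2 (-2.78), with a median of -0.68. On exons 4 of 8 were higher and 2 lower, from Svop (1.15) to Syngr2 (-2.27), with a median of 0.11. Of 14 genes of the Rab3 cycle, which encode effectors, exchange factors and GTPase activators of Rab3, 5 were higher and 5 lower in TE, from Rab3gap1 (0.64), a subunit of the Rab3 GTPase-activating complex, to the exchange factor Rab3ip (-0.62). The median TE ratio of this list was -0.12, beside 0.85 for the 10 vesicle genes. With exon counts 8 were higher and 4 lower, and the medians were 0.25 and 0.51. In IP the counts were again 5 and 5, from Rabac1 (1.74) to the active zone scaffold Rims1 (-1.29), and on exons 4 and 5, from Rab3ip (1.31) to Rims1 (-1.75). The background in TE with exon counts was 36.1% higher and 38.2% lower. In IP it was 36.5% and 39.0%, and 33.7% and 35.7% on exons.

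Other vesicle membrane and cargo-loading genes were read in the same way. Of 20 tested for TE, 15 were higher and 3 lower with a median of 0.82, from the calcium sensor Syt1 (1.80) to the vesicular glutamate transporter Slc17a7 (-0.93). With exon counts 9 were higher and 9 lower of 21, with a median of 0.31. The lowest was Slc18a2 (-1.01) and the highest Atp6v0c, at 14.2 beside 0.60 with CDS counts. So wide a gap between the counts makes the exon-based call of Atp6v0c unreliable, and its reason was not tested. In IP 8 of 18 were higher and 6 lower, from the proton pump subunit Atp6v0c (1.55) to the vesicular GABA transporter Slc32a1 (-1.43), with a median of -0.069. On exons 12 of 19 were higher and 2 lower, from Atp6v1e1 (1.33) to Slc17a8 (-2.78), with a median of 0.40. Over all genes, 36.5% were called higher and 37.3% lower in TE, and 36.1% and 38.2% with exon counts. In IP the shares over all genes were 36.5% and 39.0%, and 33.7% and 35.7% on exons. Slc17a7 is also among the excitatory and Slc32a1 among the interneuron markers. No gene of the relatives, the Rab3 cycle or this list was called after AZD-8055 in RNA, footprints or TE.

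The levels of the 10 genes over the 12 libraries followed a few patterns, given here as Pearson's r of log2 CPM among 12014 genes. The assay and the IP set most of the spread, and libraries of a mouse share an animal, so these values describe the libraries only. Syp and Rab3a ran together (r = 0.98), and Rab3a was the third nearest gene to Syp after Rtn1 (0.99) and Calm3 (0.99). Sv2a and Sv2c ran together (0.99), as did Sv2b and Syn2 (0.98). Rab3a was nearly unrelated to Synpr (0.041), Sv2c (0.12) and Sv2a (0.15).

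The genes nearest to each member included Pcdhga12 and Pcdhga9 for Sv2a (0.99 each), Dclk1, Kcnh7 and Apbb2 for Sv2b (0.99 each) and Dnm3, Pgap1 and Slc38a1 for Sv2c (0.997, 0.9965 and 0.996). Rangap1, Otub1 and Snap47 were nearest to Rab3a (0.99, 0.99 and 0.98), Dner, Pgd and Hrsp12 to Rab3b (0.99, 0.99 and 0.98) and Nucks1, Pafah1b2 and Eif1ax to Rab3c (0.99 each). D230025D16Rik, Pak7 and Klf6 were nearest to Synpr, at a lower 0.95, 0.94 and 0.93. Ube2d1, Nov and Tbr1 were nearest to Syn1 (0.98, 0.97 and 0.97), and Dusp3, Napb and Exoc8 to Syn2 (0.99 each).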

How the data were processed

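The authors deposited raw read counts per gene in a pair of tables: a CDS table with 12 libraries and an exon table with the 8 RNA-Seq libraries alone. Per the labels and the study's methods, reads on rRNA were removed with Bowtie2, the rest were aligned with TopHat2 to mm10, and HTSeq counted them in strict intersection mode. The annotation version was not given in the sources used here. Groups and mouse letters were taken from the labels.

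edgeR 4.0.16 in R 4.3.3 was fitted across all genes whose mean count was 37 or more (TMM normalization, quasi-likelihood test, Benjamini-Hochberg adjustment, calls at adjusted p under 0.05). Mice A to D entered 1 fit of 4 groups for TE, and each of the other comparisons used its own 4 libraries. No main fit held a mouse term, so libraries of the same mouse were treated as independent. TE and IP ratios per mouse used size factors of DESeq2 1.42.0. TE percentiles are over genes with at least 75 footprints and 75 RNA reads summed over mice A and B. Alternatives were DESeq2, RLE or total-count scaling, no count minimum, exon counts, a mouse block, a fold change over 2 and each mouse left out. Without mouse E or F, each arm of the IP comparison held 1 library, and the spread was pooled with the RNA-Seq libraries of mice A to D, so the lone IP library was assumed to vary like those. The procedures were tested on simulated data. Tables and plots were made with Python 3.11.15, numpy 2.4.6, pandas 2.3.3, scipy 1.17.1 and matplotlib 3.10.9.

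The text names all 10 members in each comparison, Rab3d and Syn3, the highest and lowest gene of each list of relatives, Rab3 cycle or vesicle membrane genes, marker genes at the ends of their lists, and for each member the 3 genes nearest in log2 CPM over the 12 libraries. Some items that this rule names are not reported here. Members and lists were chosen with earlier results of these data known. Libraries with the same letter come from the same animal by the labels, and over 12014 genes the difference between the 2 mice of a group was correlated at 0.22 (A and B, RNA and footprints), 0.23 (C and D) and 0.47 (E and F, input and IP).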

Additional observations from a re-analysis of the deposited data

How the results depend on the processing

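Of the members' values, those of the RNA and TE comparisons after AZD-8055 gave no call under any alternative run. Exon counts changed most results. With exon counts for RNA-Seq, chosen after the data had been seen, the TE differences turned for Sv2b minus Sv2a (-0.15), Rab3c minus Rab3a (-1.72), Rab3c minus Rab3b (-1.54) and Syn2 minus Syn1 (-0.34), that of Sv2c minus Sv2b moved to 1.94, and the TE of Rab3c (-0.62, 1 member called lower) and Synpr (-0.21) turned. With exon counts the IP difference of Rab3c minus Rab3b turned (0.61), and those of Sv2b minus Sv2a (0.70), Sv2c minus Sv2a (-3.06), Sv2c minus Sv2b (-3.76), Rab3b minus Rab3a (-1.86), Rab3c minus Rab3a (-1.24) and Syn2 minus Syn1 (-0.19) moved. On exons 5 members were higher in IP and Sv2b turned (0.49). With total counts 7 members were lower in IP and Syn2 turned (-0.43). The cause of these changes was not tested.

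Members higher in footprints after AZD-8055 numbered 1 with DESeq2 and 0 to 2 with a mouse left out (Syp without C, Syp and Synpr without D). With a mouse left out, the IP difference of Sv2b minus Sv2a ranged from -0.037 to 0.062. A fold change over 2 left 1 member lower in IP and 2493 genes higher.

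Genes called higher in TE after AZD-8055, 9 as reported, numbered 19 with DESeq2, 23 without a count minimum, 31 with the replicate block, 1 with a fold change over 2 and 1 to 7 with a mouse left out. Those lower, 93 as reported, numbered 35 with a fold change over 2 and 55 to 73 with a mouse left out, the lowest without A. In RNA, 7 higher and 11 lower became 30 and 48 without a count minimum, 21 lower with DESeq2, and 3 to 13 higher and 10 to 29 lower with a mouse left out. In footprints, 5 higher and 105 lower became 60 and 204 without a count minimum, 13 higher with DESeq2, and 2 to 355 higher and 61 to 482 lower with a mouse left out, the highest of both without C, the shallowest library. Leaving out D gave 77 and 188.

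The paired fit with mouse as a replicate block called Rab3c lower in IP (-0.29) and changed no other call of a member. Without mouse F Rab3c was at -0.49 (edgeR adjusted p = 0.0072) and without mouse E at -0.096 (0.52), in fits that hold 1 IP library and take the spread from mice A to D, so they are no replicate check. Sv2c had 16 and 20 reads in IP, which limits the precision of its ratios.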
